A study of Mus musculus with 12 samples.

Results

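The genes described here encode parts of the T cell receptor complex and its closest partners: the CD3 chains (Cd3d, Cd3e, Cd3g and Cd247), the coreceptors (Cd4, Cd8a and Cd8b1), and the kinases Lck and Zap70. The interleukin 7 receptor chain Il7r, which is not part of that complex, is described with them. These 10 genes were sought by gene symbol in the platform's annotation, with probe sets of low signal kept. 20 of the 45037 probe sets that are not controls carried the symbol of 9 of these 10 genes, and no probe set carried that of Lck, whose expression was not analysed here. Affymetrix arrays measured transcripts in mammary tissue samples from 12 mice, 3 per genotype, taken 6 days after a mating plug. Stat5a-/- mice kept 0 alleles of Stat5a and 2 of Stat5b, Stat5ab+/null mice kept 1 of each, single-Stat5b mice (labelled Stat5abnull/Stat5a-) kept 1 Stat5b allele alone, and single-Stat5a mice (labelled Stat5abnull/Stat5b-) kept 1 Stat5a allele alone. All were of a mixed C57BL/6, FVB and 129 background, and no mouse with the full set of alleles was analysed here. The labels also carry text on sorted cells and on an Mx1-Cre transgene, whose interferon-responsive promoter is switched on by injected PolyIC, while the series design speaks of mammary tissue, which was followed here. The labels leave it unclear whether that transgene or injection applies to these mice.

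The antigen-binding chains of the T cell receptor have almost no cytoplasmic part, and the CD3 chains carry the tyrosine motifs that pass the signal on. Lck, held by CD4 or CD8, phosphorylates these motifs, and Zap70 docks on them and phosphorylates the adaptors downstream. Il7r pairs with the common gamma chain and signals through Jak kinases to Stat5, a signal that naive T cells need for survival. In the mammary gland, T cells lie along the ducts and in the stroma, and the lymph node embedded in the fat pad is packed with T and B cells.

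Cd3g, Cd3d and Cd3e lie beside each other on chromosome 9, with Cd3g and Cd3d transcribed away from each other, at 44969572 to 44980431, 44981769 to 44987052 and 44998735 to 45009663 of GRCm38.p6. Cd8b1 and Cd8a are neighbours on chromosome 6 and Cd4 lies on the same chromosome, Cd247 and Zap70 are on chromosome 1, and Il7r is on chromosome 15. The 250 bases before the start site are shown for the 3 genes of the CD3 cluster, whose signals moved together from mouse to mouse, and for Il7r, which had the largest difference between genotypes. They come from RefSeq and are written 5′ to 3′ on the gene's own strand. Capitals mark matches, on either strand, to any of 6 short motifs. The STAT motif was searched as TTCNNNGAA. For RUNX factors, which act in the choice between the CD4 and CD8 fates of T cells, the letters were TGTGGT. For ETS factors, of which Ets1 is one, they were AGGAAG. The motif searched for GATA factors such as Gata3 was AGATAA. The E-box, bound by E proteins of early lymphocytes, was searched as CANNTG. The TATA box, which places the start of many transcripts, was searched as TATAAA. The windows are chr9:44981536-44981785 (plus strand) for Cd3d, chr9:45009612-45009861 (minus) for Cd3e, chr9:44980432-44980681 (minus) for Cd3g and chr15:9529877-9530126 (minus) for Il7r.
Cd3d: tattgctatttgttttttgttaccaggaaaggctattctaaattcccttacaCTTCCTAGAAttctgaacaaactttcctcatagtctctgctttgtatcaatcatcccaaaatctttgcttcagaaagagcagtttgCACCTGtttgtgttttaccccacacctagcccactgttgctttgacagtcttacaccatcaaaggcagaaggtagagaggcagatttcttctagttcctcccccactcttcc
Cd3e: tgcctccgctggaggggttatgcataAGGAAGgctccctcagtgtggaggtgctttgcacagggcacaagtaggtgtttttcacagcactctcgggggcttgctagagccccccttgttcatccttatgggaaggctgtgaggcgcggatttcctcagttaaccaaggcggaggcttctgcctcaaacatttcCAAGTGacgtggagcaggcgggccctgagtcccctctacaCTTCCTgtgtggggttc
Cd3g: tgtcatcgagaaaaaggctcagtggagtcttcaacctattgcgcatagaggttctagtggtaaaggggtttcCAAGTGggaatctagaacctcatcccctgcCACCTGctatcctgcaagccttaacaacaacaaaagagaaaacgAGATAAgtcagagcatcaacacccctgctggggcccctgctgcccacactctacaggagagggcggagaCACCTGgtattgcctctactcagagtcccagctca
Il7r: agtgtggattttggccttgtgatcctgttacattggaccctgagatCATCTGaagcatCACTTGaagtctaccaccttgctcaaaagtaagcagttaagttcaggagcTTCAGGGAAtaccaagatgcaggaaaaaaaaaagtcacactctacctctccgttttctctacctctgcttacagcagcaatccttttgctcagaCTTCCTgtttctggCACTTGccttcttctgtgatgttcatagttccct
Of the 11 windows found for 8 members (2 of them for Lck, whose expression was not measured), 2 held the STAT motif, those of Cd3d and Il7r, beside 7.02% of all 32851 windows. The Cd3d match, TTCCTAGAA, spans bases 197 to 189 before the start site and overlaps an ETS match. The Il7r match, TTCAGGGAA, spans bases 142 to 134. ETS matches stood in 8 of the 11 windows (29.5% of all windows), E-boxes in 10 (66.2%), RUNX in 2 (14.0%), GATA in 1 (9.99%), and the TATA box in 0 (12.4%). A match to these letters does not show that a factor binds there.

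The arrays fell into 2 sets. Actin control probes near the 3' end of the transcript exceeded those near its 5' end, a measure of how complete the labelled RNA was, by 2.16 to 3.78 log2 units in the set with 1 intact allele (single-Stat5b and single-Stat5a), against 0.13 to 0.27 in the set with 2 (Stat5a-/- and Stat5ab+/null). Pearson r over probe sets was 0.818 to 0.883 between arrays of different sets and 0.957 to 0.993 between arrays of a genotype. Since each set also has its own number of alleles, these cannot be told apart, and genotypes were compared within a set. Defining markers of mammary tissue were high throughout, with a mean over 10 epithelial genes of 11.7 to 12.6 per array. The labels say only that the samples are separate mice. Each p-value rests on 1 spread between mice that is shared by all 12 arrays. Where the spread differs between the sets, the SE and p-value in either set partly carry the spread of the other. The number of arrays limits the precision. In whole tissue, fewer T cells and less RNA per T cell cannot be told apart.

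For most probe sets of the T cell receptor complex, more of the variation lay between mice of a genotype than between genotypes. The same held for most probe sets of the arrays. The median share between genotypes over all probe sets was 16.9% in the set with 2 alleles and 12.5% in the set with 1. In each of 3 genotypes, 1 mouse was highest for most probe sets. Stat5a-/- 3 was the highest of its group for 18 of the 20 probe sets, Stat5ab+/null 2 for 16 and single-Stat5b 1 for 17. Over all 45037 probe sets each of these arrays was the highest of its group in 29.7% to 35.2%. In single-Stat5a the highest array was spread over the mice, with 4, 6 and 10 probe sets highest in mice 1, 2 and 3. Taking each gene's probe set of highest mean signal gives a level per mouse. The mean over the 9 genes was 6.77, 6.82 and 8.06 in Stat5a-/- mice 1 to 3 and 6.84, 8.99 and 6.96 in Stat5ab+/null mice 1 to 3. It was 8.25, 6.81 and 6.96 in single-Stat5b mice 1 to 3 and 7.06, 7.12 and 7.34 in single-Stat5a mice 1 to 3. Single-Stat5b 1 also had the highest actin 3' minus 5' value of the 12 arrays (3.78), and the part of RNA quality in its signals was not tested.

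**Figure D1:**
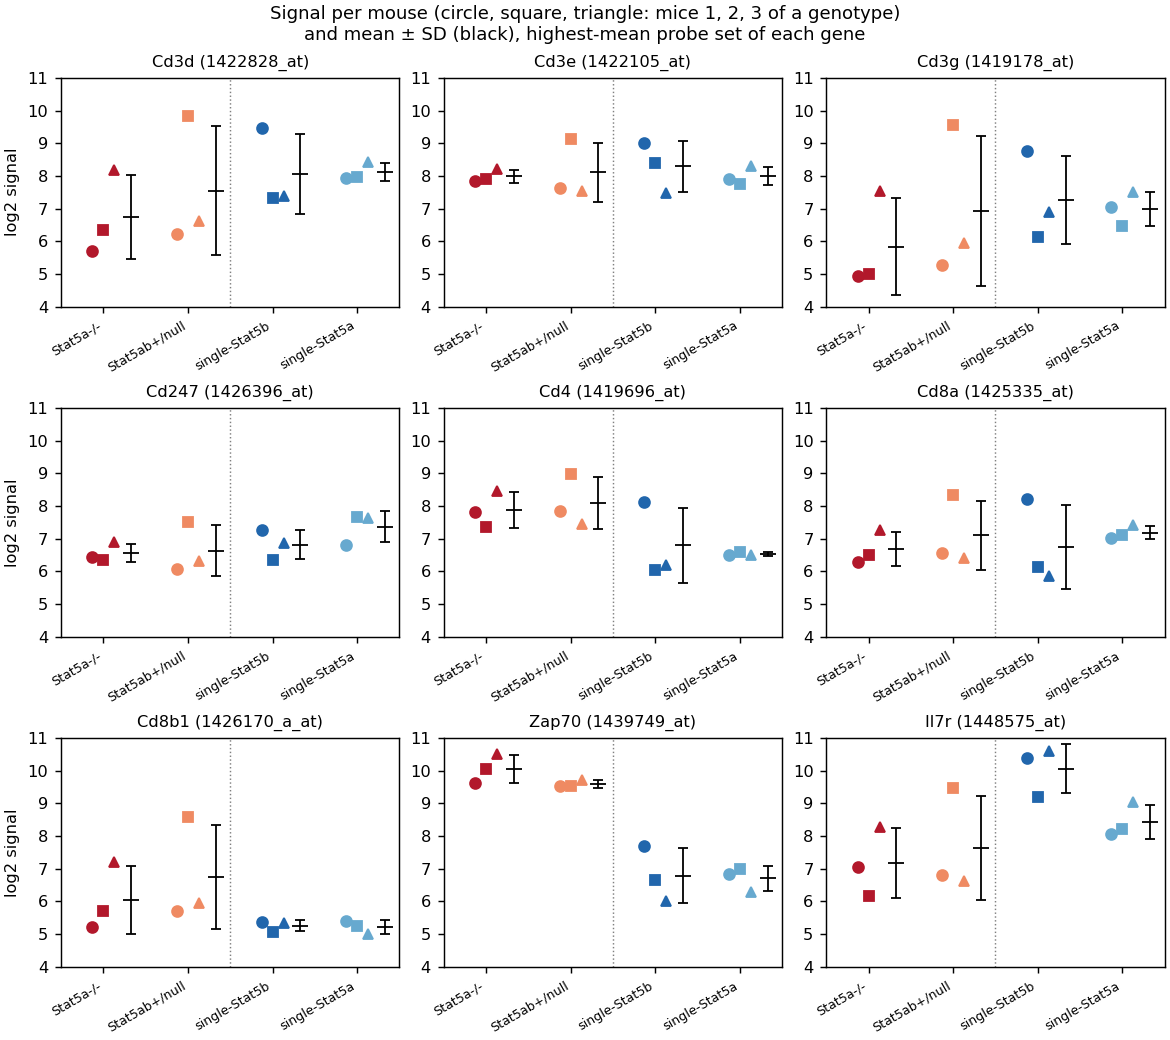
Log2 signal of each mouse for the 9 measured genes, by genotype, with the mean ± SD of the 3 mice in black; the dotted line parts the array sets. Stat5a-/- 3 (triangle), Stat5ab+/null 2 (square) and single-Stat5b 1 (circle) lie above the other mice of their genotype for Cd3d, Cd3g, Cd4 and Cd8a.

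Among the CD3 chains, Cd3d, the delta chain, had a log2 signal of 5.70, 6.34 and 8.19 in Stat5a-/- mice 1 to 3, against 6.21, 9.82 and 6.62 in Stat5ab+/null mice. In the 1-allele set it had 9.47, 7.33 and 7.38 in single-Stat5b mice, against 7.95, 7.97 and 8.44 in single-Stat5a mice. The groups overlapped in both sets, and the spread within Stat5ab+/null (3.62 between its lowest and highest mouse) was wider than the difference of the group means (-0.80, SE 0.89). Between single-Stat5b and single-Stat5a the means differed by -0.06 (SE 0.89). Neither difference passed limma's test over all probe sets (adjusted p = 1 and 0.988).

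Cd3g, the gamma chain, followed the same mice, with 4.93, 5.00 and 7.54 in Stat5a-/- and 5.27, 9.56 and 5.95 in Stat5ab+/null. It had 8.75, 6.13 and 6.88 in single-Stat5b and 7.03, 6.46 and 7.50 in single-Stat5a. The Stat5ab+/null mice spanned 4.28 log2 units, with mouse 2 far above both others. Cd3e, the epsilon chain, had a narrower spread, with 7.84, 7.92 and 8.20 in Stat5a-/- and 7.62, 9.14 and 7.55 in Stat5ab+/null. In the 1-allele set it had 9.02, 8.40 and 7.46 in single-Stat5b and 7.90, 7.77 and 8.31 in single-Stat5a. The means of Cd3g differed by -1.10 (SE 1.02) between Stat5a-/- and Stat5ab+/null and by 0.26 (SE 1.02) between single-Stat5b and single-Stat5a, and those of Cd3e by -0.12 and 0.30 (SE 0.43 each), with none past the test. The 95% interval of the Cd3g difference ran from -3.33 to 1.12 in the 2-allele set with 3 mice a group.

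Cd247, the zeta chain with several signalling motifs, was read by 4 probe sets that did not move alike. The one with the highest mean, 1426396_at, had 6.45, 6.36 and 6.89 in Stat5a-/- and 6.07, 7.51 and 6.31 in Stat5ab+/null, so that the same mice were high as for Cd3d. In the 1-allele set it had 7.25, 6.35 and 6.85 in single-Stat5b and 6.81, 7.66 and 7.62 in single-Stat5a. In probe set 1426079_at, mouse 2 of Stat5ab+/null was instead the lowest of its genotype. It had 5.50, 5.77 and 5.57 in Stat5a-/- and 5.09, 4.62 and 5.17 in Stat5ab+/null, without overlap (difference 0.65, SE 0.36, adjusted p = 1). It was the 1 member probe set of the 20 whose groups did not overlap in this comparison, beside 17.0% of all probe sets (7.13% higher, 9.85% lower).

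The coreceptors were high in the same mice in the 2-allele set. Cd4, which binds class II histocompatibility molecules, had 7.83, 7.36 and 8.44 in Stat5a-/- and 7.84, 8.97 and 7.46 in Stat5ab+/null for the probe set with the higher mean. In the 1-allele set it had 8.12, 6.06 and 6.20 in single-Stat5b, while the single-Stat5a mice lay within 0.10 of each other at 6.49, 6.60 and 6.51. Its difference was -0.21 (SE 0.51) between Stat5a-/- and Stat5ab+/null and 0.26 (SE 0.51) between single-Stat5b and single-Stat5a. The other Cd4 probe set, 1427779_a_at, had a mean of 5.62 over all arrays. It had 5.76, 5.70 and 5.90 in Stat5a-/- and 6.09, 6.92 and 5.67 in Stat5ab+/null. In the 1-allele set it had 5.36, 5.27 and 5.01 in single-Stat5b and 4.98, 5.25 and 5.52 in single-Stat5a. By this probe set single-Stat5b 1 was the highest of its genotype but lay within the range of the single-Stat5a mice. Cd8a, the alpha chain of the class I coreceptor, had 6.30, 6.50 and 7.28 in Stat5a-/- and 6.57, 8.32 and 6.40 in Stat5ab+/null for 1425335_at. It had 8.21, 6.14 and 5.86 in single-Stat5b and 7.02, 7.12 and 7.41 in single-Stat5a, so that 2 of the single-Stat5b mice lay below all 3 single-Stat5a mice and the third above them (difference -0.45, SE 0.59). Without single-Stat5b 1 the difference was -1.18, with a limma adjusted p of 0.337.

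Probe sets for the CD8 chains parted in single-Stat5b 1. Cd8b1, the beta chain that marks CD8 T cells of the alpha-beta kind, had 5.21, 5.70 and 7.22 in Stat5a-/- and 5.69, 8.59 and 5.95 in Stat5ab+/null, but 5.37, 5.06 and 5.33 in single-Stat5b and 5.40, 5.25 and 4.99 in single-Stat5a. Another Cd8a probe set, 1451673_at, gave the same picture, with 7.01 in Stat5a-/- 3 and 7.74 in Stat5ab+/null 2, against 4.56, 4.48 and 4.42 in single-Stat5b and 4.69, 4.81 and 4.57 in single-Stat5a. In these 1-allele arrays both probe sets lay below log2 6.04, the 30th percentile of mean signal over all probe sets, and whether such signals stand above background was not tested. Single-Stat5b 1 was high for Cd8a by 1425335_at (8.21) and 1444078_at (5.85, against 4.27 and 4.41 in the other single-Stat5b mice) and not by 1451673_at or for Cd8b1. Probe set 1440164_x_at for Cd8a parted the array sets instead, as it stood at 6.14 to 7.63 in the 2-allele arrays and 3.65 to 4.95 in the 1-allele arrays.

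Zap70, the kinase that docks on CD3 and Cd247, was read by 3 probe sets. That with the highest mean, 1439749_at, had 9.63, 10.04 and 10.50 in Stat5a-/- and 9.53, 9.53 and 9.73 in Stat5ab+/null. In the 1-allele set it had 7.69, 6.65 and 6.02 in single-Stat5b and 6.85, 7.00 and 6.28 in single-Stat5a. It separated the array sets, and Stat5ab+/null 2 was not raised by it. Probe set 1422701_at did show that mouse, with 6.22, 6.73 and 6.67 in Stat5a-/- and 6.11, 7.38 and 6.79 in Stat5ab+/null. None of the 3 passed in either comparison (differences of -0.22 to 0.46 between Stat5a-/- and Stat5ab+/null and of -0.13 to 0.21 between single-Stat5b and single-Stat5a). Levels in the 1-allele arrays lay wholly below those in the 2-allele arrays for 5 of the 20 probe sets, among them both 1439749_at and 1422701_at, and wholly above for 1 (Cd247 1420716_at), where 48.8% of all probe sets did not overlap (24.7% lower, 24.1% higher).

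Il7r, the receptor chain for interleukin 7, had the largest difference between genotypes of the members tested. Its probe set 1448575_at had 10.38, 9.21 and 10.61 in single-Stat5b, against 8.06, 8.23 and 9.03 in single-Stat5a, without overlap. In the 2-allele set it had 7.06, 6.17 and 8.29 in Stat5a-/- and 6.80, 9.47 and 6.63 in Stat5ab+/null, high in the same mice as Cd3d. By this probe set single-Stat5b 3 was the highest of the 12 mice. By the probe set of highest mean per gene, its Cd3d, Cd3e and Cd8a signals (7.38, 7.46 and 5.86) were below those of all single-Stat5a mice. So were its Cd4 and Zap70 signals (6.20 and 6.02), while its Cd3g, Cd247 and Cd8b1 signals (6.88, 6.85 and 5.33) lay within the range of those mice. For 1448575_at the means of single-Stat5b and single-Stat5a differed by 1.63 (SE 0.71, 95% interval 0.09 to 3.16, 3.09-fold on the linear scale), and the adjusted p from limma was 0.367. Its pooled SD within genotypes was 0.65 in the 1-allele set and 1.35 in the 2-allele set. In a limma fit of single-Stat5b and single-Stat5a alone the adjusted p was 0.155. The second probe set, 1448576_at, was highest of the 12 mice in Stat5ab+/null 2 (7.39). It had 6.06, 5.80 and 6.34 in single-Stat5b and 4.52, 5.14 and 5.21 in single-Stat5a, again without overlap (difference 1.11, SE 0.58, adjusted p = 0.491). Whether the difference of 1448575_at differed from that between Stat5a-/- and Stat5ab+/null (-0.46, SE 0.71) was tested as an interaction, which gave 2.08 (SE 1.00, adjusted p = 0.68). For 1448575_at the difference between single-Stat5b and single-Stat5a kept its direction without each array in turn, at 1.35 to 2.06. No such run passed (lowest limma adjusted p = 0.162). The interaction ran from 1.17 to 2.64 in these runs, and none passed (lowest limma adjusted p = 0.362).

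The order of group means across all 4 genotypes mixes the array sets with the alleles and is given as a description. Il7r 1448575_at stood at 10.07 ± 0.75 (SD, n = 3) in single-Stat5b, 8.44 ± 0.52 in single-Stat5a, 7.63 ± 1.59 in Stat5ab+/null and 7.17 ± 1.07 in Stat5a-/-. Cd3d was highest in single-Stat5a (8.12 ± 0.27) and single-Stat5b (8.06 ± 1.22), before Stat5ab+/null (7.55 ± 1.98) and Stat5a-/- (6.75 ± 1.29). Neighbours in the Cd3d order differ by less than their spread. For Cd4 the order was Stat5ab+/null (8.09 ± 0.79), Stat5a-/- (7.88 ± 0.54), single-Stat5b (6.79 ± 1.15) and single-Stat5a (6.53 ± 0.06), and the step between Stat5a-/- and single-Stat5b crosses the array sets.

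**Figure D2:**
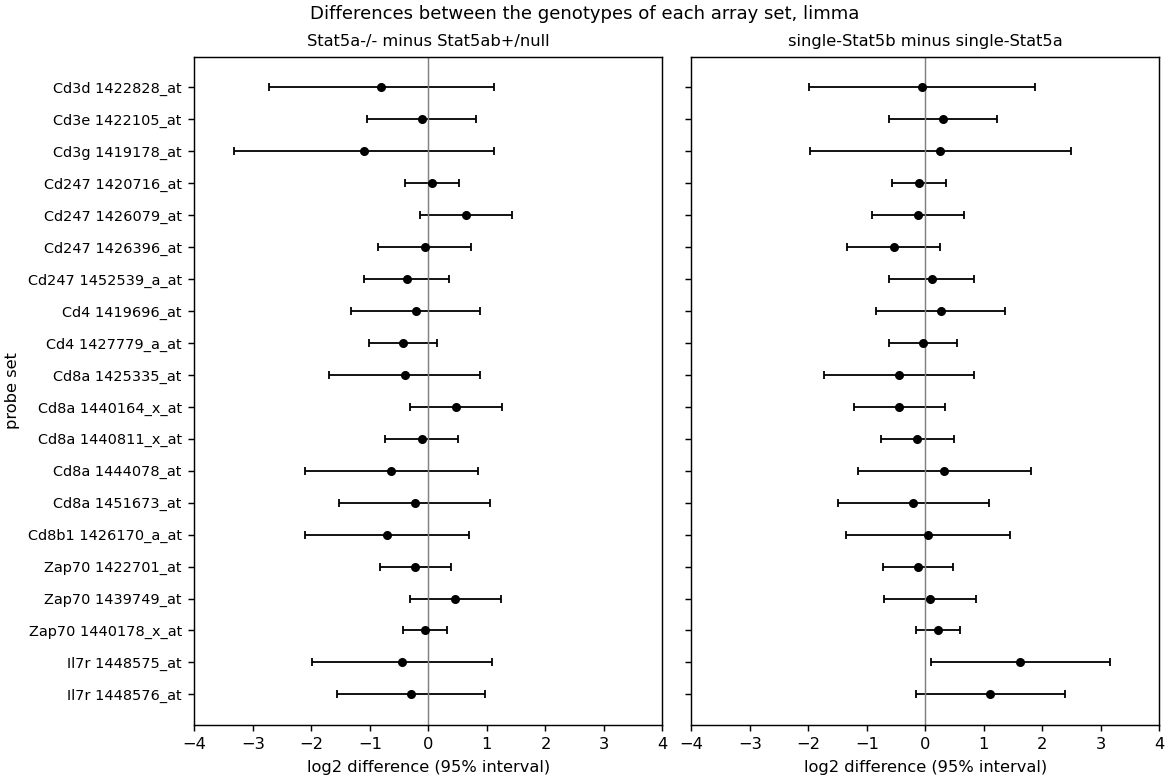
Log2 differences of the 20 probe sets between the 2 genotypes of each array set, with 95% intervals from limma. All intervals but that of Il7r 1448575_at between single-Stat5b and single-Stat5a (0.09 to 3.16) include 0.

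Limma called 0 of the 20 probe sets between Stat5a-/- and Stat5ab+/null, where 0.00666% of all probe sets were called (0.00444% higher, 0.00222% lower), and 0 of 20 between single-Stat5b and single-Stat5a, where 2.70% were (1.06% higher, 1.65% lower). At an unadjusted p under 0.05 the counts were 0 of 20 (3.17% of all probe sets) and 1 of 20 (12.4%), and that probe set was Il7r 1448575_at. The interaction called 0 of 20, with 0 at an unadjusted p under 0.05, beside 0.950% (0.351% higher, 0.600% lower) and 7.78% of all probe sets, and 13 of 20 lay above 0 (56.2% of all). An exact permutation test of 3 mice against 3 cannot go below p = 0.1. Between Stat5a-/- and Stat5ab+/null, 4 of the 20 differences lay above 0 and their median was -0.23, beside 42.3% above 0 and a median of -0.03 for all probe sets. Without Stat5ab+/null 2 the count above 0 was 19 and the median 0.28, and the direction rested on that mouse. Between single-Stat5b and single-Stat5a, 10 of 20 lay above 0 with a median of 0.00028 (all probe sets 53.3% and 0.02), and without single-Stat5b 1 the count was 4 and the median -0.26. Groups did not overlap for 3 of the 20 in that comparison, both Il7r probe sets (higher) and Cd8a 1451673_at (lower), beside 11.9% of all probe sets (6.22% higher, 5.72% lower).

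Among the 6 arrays of a set, the share of the sum of squares that lay between the 2 genotypes had a median over the 20 probe sets of 8.06% in the 2-allele set and 8.11% in the 1-allele set, beside 16.9% and 12.5% over all probe sets. It was below the median of all probe sets for 16 and 13 of the 20. The shares of Cd3d were 7.99% and 0.17%, those of Cd3e 1.22% and 8.81% and those of Cd3g 10.8% and 2.34% in the 2-allele and 1-allele sets. High shares were found for Il7r in the 1-allele set (70.4% and 81.0% for its probe sets, but 4.12% and 2.28% in the 2-allele set), for Cd8a 1451673_at there (62.3%, over a range of 4.42 to 4.81), and for Cd247 1426079_at in the 2-allele set (74.8%). The pooled SD within genotypes had a median of 0.64 for the 20 probe sets in the 2-allele set and 0.47 in the 1-allele set, beside 0.17 and 0.32 for all probe sets. It exceeded the 90th percentile of probe sets with a mean at or above log2 6.04 for 15 of 20 and 8 of 20. The median share was sensitive to single mice. It was 2.28% without Stat5a-/- 1, 4.20% without Stat5a-/- 2, 17.3% without Stat5a-/- 3, 22.9% without Stat5ab+/null 1 and 18.4% without Stat5ab+/null 3 in the 2-allele set. In the 1-allele set it was 28.5% without single-Stat5b 1, 17.5% without single-Stat5b 3 and 12.8% without single-Stat5b 2. Runs without Stat5ab+/null 2 or without a single-Stat5a mouse are not listed here. A share with 1 array left out cannot be set against the medians of all probe sets above, which come from 6 arrays.

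**Figure D3:**
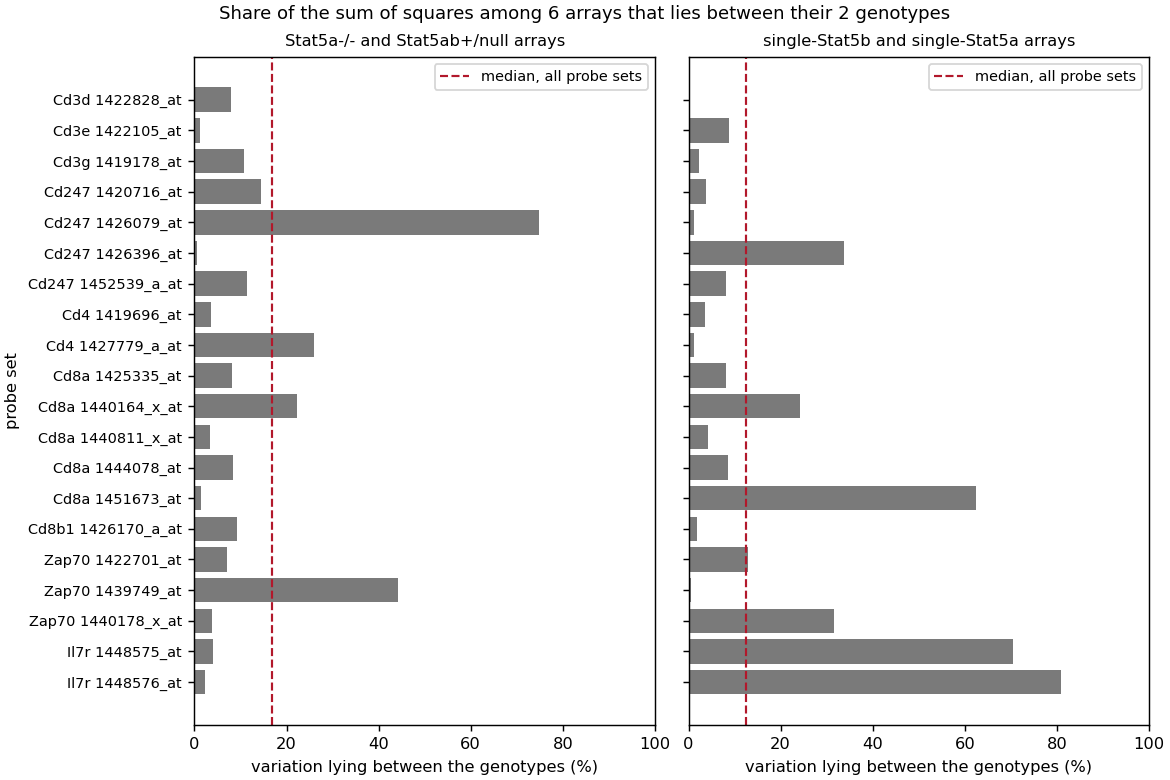
Share of the variation among the 6 arrays of a set that lies between its 2 genotypes, for each of the 20 probe sets, with the median of all probe sets (16.9% and 12.5%) as a dashed line. Most bars end left of the line, and those of Il7r in the 1-allele set (70.4% and 81.0%) do not.

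The members moved together across mice once the genotype means were taken out. Pearson r between a probe set's deviations from its genotype means over the 12 arrays and the mean deviation of the other genes served as a description of likeness. It was 0.99 for Cd3d, 0.97 for Cd3g, 0.97, 0.92 and 0.87 for 3 Cd8a probe sets, 0.87 for Cd4, 0.85 for Cd247 1426396_at, 0.83 for both Cd8b1 and Cd3e and 0.81 for Il7r. The lowest values were 0.40 for Zap70 1439749_at, 0.34 for Cd8a 1440164_x_at, 0.10 for Cd247 1426079_at and 0.08 for Cd247 1420716_at. Arrays of extreme deviation, Stat5ab+/null 2 above all, weigh most in these values. Of the 20 probe sets, 10 had a mean under log2 6.04, among them both of the last 2 and the 1 for Cd8b1.

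**Figure D4:**
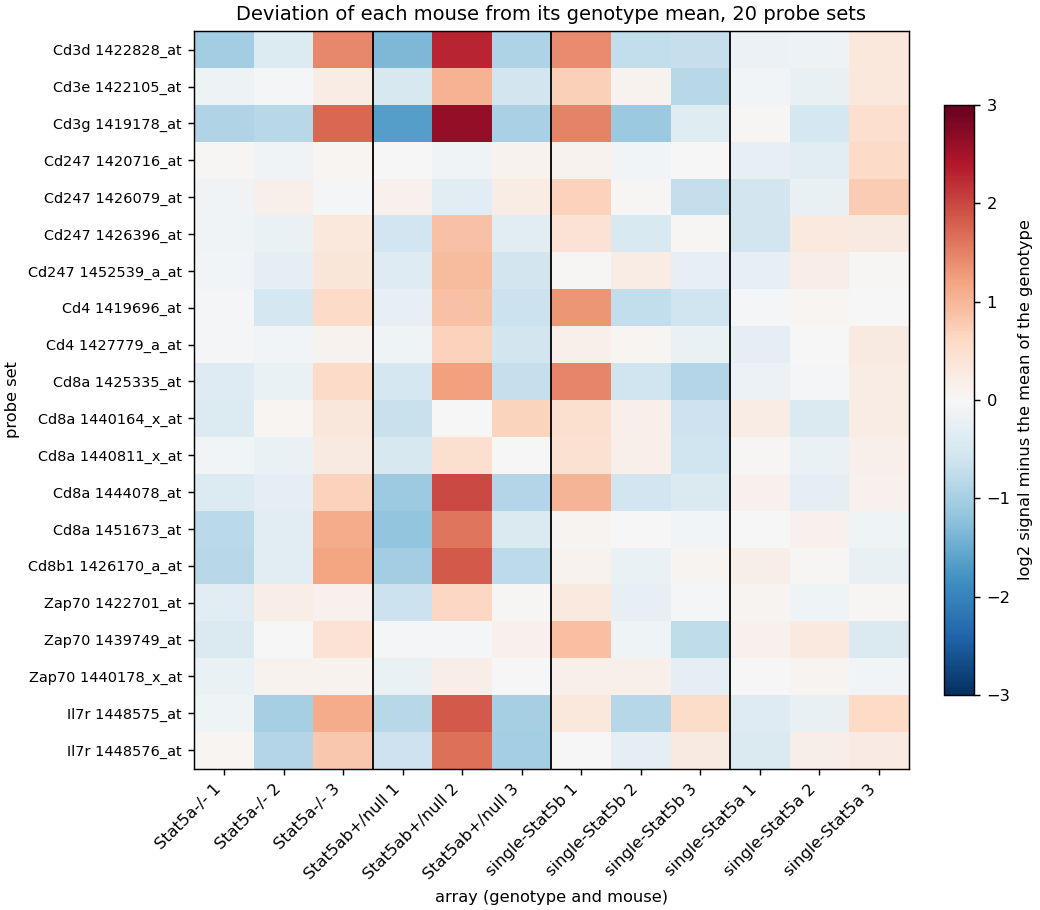
Log2 signal of each array minus the mean of its genotype, for the 20 probe sets in rows and the 12 arrays in columns. Stat5a-/- 3, Stat5ab+/null 2 and single-Stat5b 1 are red (above their genotype mean) for most rows, and these were the highest of their genotype for 18, 16 and 17 of the 20.

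Of 14190 other genes with a mean at or above log2 6.04, those whose deviations were most like the mean deviation of the members over the 12 arrays were Ccr7, the chemokine receptor that brings T cells and dendritic cells into lymph nodes (r = 0.98), the lymphocyte sphingosine phosphate receptor S1pr4 (0.97) and the phospholipase Plcg2 of B cell receptor signalling (0.97). They were followed by Ms4a4b, a membrane protein of T cells (0.96), Serpina10 (0.96), Gimap7 (0.96), Fam169b (0.95), the Langerhans cell lectin Cd207 (0.95), Gimap4 (0.95), Zcchc18 (0.95), Tspyl3 (0.94) and Trbv1, a variable segment of the T cell receptor beta chain (0.94). Gimap7 and Gimap4 belong to a family of GTPases of lymphocytes. Ccr7 had 5.87, 6.07 and 8.01 in Stat5a-/- and 6.12, 10.21 and 6.44 in Stat5ab+/null, then 7.44, 3.92 and 5.39 in single-Stat5b and 5.21, 5.16 and 5.34 in single-Stat5a. Trbv1 had 6.18, 6.67 and 7.98 in Stat5a-/- and 6.72, 9.68 and 7.04 in Stat5ab+/null, then 9.88, 6.78 and 8.26 in single-Stat5b and 8.27, 7.67 and 8.39 in single-Stat5a.

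Of 30 signalling partners, such as adaptors and costimulatory receptors, 27 were measured by 52 probe sets, and 0 were called in either comparison (2 had an unadjusted p under 0.05 between single-Stat5b and single-Stat5a, and 0 between Stat5a-/- and Stat5ab+/null). Over all probe sets, 2.70% were called and 12.4% had an unadjusted p under 0.05 between single-Stat5b and single-Stat5a, and 0.00666% and 3.17% between Stat5a-/- and Stat5ab+/null. Their median difference was -0.21 between Stat5a-/- and Stat5ab+/null and 0.08 between single-Stat5b and single-Stat5a. The 3 partners of highest signal, Thy1, Plcg1 and Ptprc, are also made by other cells. Ptprc, the leukocyte phosphatase CD45, had 11.15, 10.95 and 12.39 in Stat5a-/- and 11.23, 12.74 and 11.25 in Stat5ab+/null, but 10.41, 10.34 and 10.30 in single-Stat5b and 10.16, 10.35 and 10.37 in single-Stat5a. Thy1 lay between 11.37 and 12.50 in all arrays, and Plcg1 parted the array sets, at 10.18 to 10.72 with 2 alleles and 12.41 to 12.85 with 1. A second Ptprc probe set, 1440165_at, ordered the sets the other way, at 4.75 to 7.30 with 2 alleles and 8.63 to 9.76 with 1. Of 15 symbols listed for receptor chain genes, 2 were measured, Trbv13-2 and Tcra, at means of 5.39 and 3.64 over all arrays, both under the 30th percentile. Trbv13-2 had 6.32, 6.13 and 5.85 in Stat5a-/- and 5.53, 6.23 and 5.95 in Stat5ab+/null. In the 1-allele set it had 5.61, 4.305 and 5.08 in single-Stat5b and 4.64, 4.37 and 4.62 in single-Stat5a. By Trbv13-2, Stat5a-/- 3 was thus the lowest of its genotype, while Stat5ab+/null 2 and single-Stat5b 1 were the highest of theirs. Tcra lay between 3.49 and 4.01 in all arrays, with Stat5a-/- 3 and single-Stat5b 1 the lowest of their genotypes. Trbv1, which is not on that list and was named for its likeness to the members, had a mean of 7.79.

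Of 20 genes for T cell identity and homing, 17 were measured by 36 probe sets. Between single-Stat5b and single-Stat5a 2 of the 36 were called, both higher, where 1.06% of all probe sets were called higher. Between Stat5a-/- and Stat5ab+/null 0 were called (0.00666% of all probe sets), and 2 had an unadjusted p under 0.05 in limma (3.17% of all). The pair called, named after their values were seen, were Ets1 1422028_a_at and Ccr9 1427419_x_at. The Ets1 probe set, for a transcription factor that T cells share with endothelium, had 8.81, 8.21 and 7.55 in single-Stat5b and 6.09, 5.64 and 6.56 in single-Stat5a (difference 2.09, SE 0.32, limma adjusted p = 0.00250). The other Ets1 probe sets differed by 0.16 to 0.34. The Ccr9 probe set, for the receptor that guides T cells to the gut, had 6.76, 6.87 and 5.81 in single-Stat5b and 4.86, 4.71 and 5.07 in single-Stat5a (difference 1.60, SE 0.38, limma adjusted p = 0.0426). The other Ccr9 probe sets differed by 0.18 to 1.16. The mean of 1427419_x_at over all arrays was 5.41, under log2 6.04, and whether its signals stand above background was not tested. The call was lost in 11 of 21 alternatives (difference 1.40 to 1.93 and adjusted p 0.00325 to 0.163 over all 21). Of these 11, 8 left out 1 mouse (Stat5a-/- 1 or 2, Stat5ab+/null 3, single-Stat5b 1 or 2, or any single-Stat5a mouse). The signal filters and the fit with 1 probe set per gene dropped this probe set and are not among the 21. Its adjusted p of 0.0426 would not pass the threshold of 0.01. The identity genes of highest signal, Ets1 1426725_s_at, Gata3 and Klf2, differed by 0.16, 0.17 and -0.33 between single-Stat5b and single-Stat5a, and none passed. Between Stat5a-/- and Stat5ab+/null they differed by 0.19, -0.73 (SE 0.24) and -0.84 (SE 0.38), and none passed (adjusted p = 1). Gata3, a factor of T cells and of mammary luminal cells, had 10.14, 10.36 and 9.92 in Stat5a-/- and 10.83, 10.86 and 10.93 in Stat5ab+/null, without overlap. It was the 1 probe set of the 36 whose groups did not overlap in this comparison, beside 17.0% of all probe sets (7.13% higher, 9.85% lower).

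Markers of B cells were high in some of the same mice, and not in all. The mean over 13 B cell genes was 6.86, 6.80 and 10.8 in Stat5a-/- mice 1 to 3 and 7.72, 11.1 and 8.73 in Stat5ab+/null mice. It was 7.37, 6.66 and 6.88 in single-Stat5b and 6.81, 6.68 and 7.45 in single-Stat5a. Stat5a-/- 3 and Stat5ab+/null 2 were high for both cell types. Cd79b, a signalling chain of the B cell receptor, stood at 12.40 and 12.28 in them and at 7.18 to 10.01 in the other 2-allele mice. In the same mice Cd37, a leukocyte tetraspanin, stood at 11.92 and 12.24, and Blnk, a B cell adaptor, at 10.87 and 11.18. Single-Stat5b 1 was high for T cell receptor genes with a B cell mean of 7.37, and Stat5ab+/null 3 had a B cell mean of 8.73 with a T cell mean of 6.96. With the B cell mean of each array as a covariate, 14 of the 20 probe sets lay above 0 between Stat5a-/- and Stat5ab+/null in place of 4, and 0 passed.

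**Figure D5:**
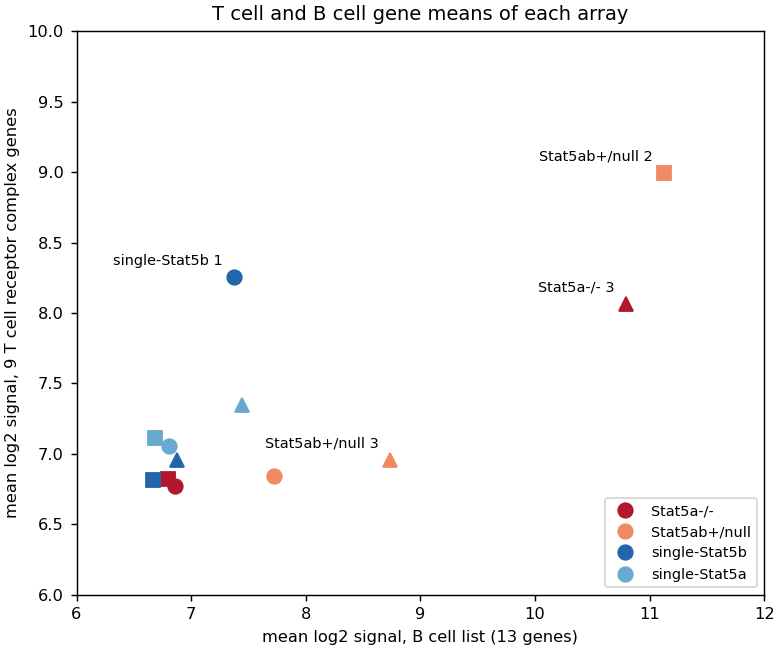
Mean log2 signal of the 9 T cell receptor complex genes against that of 13 B cell genes for each of the 12 arrays (circle, square and triangle for mice 1, 2 and 3 of a genotype). Stat5ab+/null 2 and Stat5a-/- 3 lie far right and high, single-Stat5b 1 lies high with a B cell mean of 7.37, and the other 9 arrays have T cell means of 6.77 to 7.34.

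Glycam1, made by the high endothelial venules of lymph nodes and also by milk-making epithelium, had 5.39, 5.64 and 12.16 in Stat5a-/- and 5.70, 12.54 and 7.77 in Stat5ab+/null. It had 11.96, 7.75 and 6.39 in single-Stat5b and 5.47, 5.15 and 5.99 in single-Stat5a, and the 3 mice with the highest T cell means also had the highest Glycam1. Cxcl13, the B cell follicle chemokine, had 13.0 in Stat5ab+/null 2, against 8.72 to 9.67 in the other 2-allele arrays, and 8.83 in single-Stat5b 1, against 9.40 to 11.12 in the other 1-allele arrays, by probe set 1417851_at. By 1448859_at single-Stat5b 1 had 7.70, and single-Stat5b 2 was lower still (7.47). Lyve1, a marker of lymphatic vessels, lay between 9.19 and 11.14 in all arrays by probe set 1429379_at and between 8.07 and 9.80 by 1453128_at. The mean over 6 genes of lymph node stroma and vessels was 8.53 in Stat5a-/- 3, 9.35 in Stat5ab+/null 2 and 8.15 in single-Stat5b 1, and 7.01 to 7.54 in the other 9 arrays. Without Glycam1 the mean over the other 5 genes was 7.80 in Stat5a-/- 3, 8.72 in Stat5ab+/null 2 and 7.39 in single-Stat5b 1. It was 7.28 to 7.85 in the other 9 arrays, so that Stat5a-/- 3 and single-Stat5b 1 lay within their range and Stat5ab+/null 2 above it. Genes of cytotoxic and natural killer cells, which share part of the T cell programme, had a mean over 11 genes of 7.70 in Stat5a-/- 3, 9.24 in Stat5ab+/null 2 and 7.11 in single-Stat5b 1, and 6.62 to 7.50 in the other 9 arrays. Of the remaining lists, means per array were 11.3 to 12.2 for macrophages, 7.31 to 9.06 for dendritic cells, 7.69 to 8.48 for innate lymphoid and gamma delta T cells, 12.8 to 13.8 for white adipocytes and 6.31 to 12.8 for skeletal muscle. In the 2-allele set the muscle mean was high in the same mice as the T cell mean, at 6.56, 6.44 and 9.63 in Stat5a-/- mice 1 to 3 and 6.67, 8.63 and 6.31 in Stat5ab+/null mice. Among 1-allele arrays it was 7.60, 8.25 and 10.2 in single-Stat5b and 10.1, 12.8 and 9.25 in single-Stat5a, lowest in single-Stat5b 1. The highest dendritic and innate lymphoid means were both in Stat5ab+/null 2. The part of tissue makeup in the T cell receptor signals was not tested.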

How the data were processed

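Trizol-extracted total RNA of 12 mammary tissue samples was labelled with biotin and hybridized to Affymetrix arrays, per the labels' protocols. The authors deposited 1 log2 value per probe set and array, made with RMA and Partek, per the submitters' processing notes (version: not given in the sources used here). Groups came from the genotype labels, and mice of a group carry numbers in record order. Letters in the titles (ABB in Stat5a-/- mice, AAB in those labelled Stat5ab+/null) would conflict with the printed allele numbers if they count intact alleles. Their meaning is not given, and the genotype labels were followed.

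Probe sets were named from the platform annotation (34945 by 1 gene, 932 by several, 9160 by none), and 64 controls were left out. All 45037 others were fitted in limma 3.58.1 (R 4.3.3) with 1 mean per genotype and 1 spread shared by the 12 arrays, 2-sided tests and Benjamini-Hochberg adjustment, and a probe set was called where the adjusted p was below 0.05. The fit was tested on simulated data. Genes named are the members, the 3 genes of highest signal on the T cell, B cell and stromal lists, and the 12 genes of most similar pattern over genes at or above the 30th percentile of signal. Exceptions are named in the text. The members and lists were chosen with earlier results of these data known. Alternatives were filters at the 30th and 50th percentiles, 1 probe set per gene, quantile normalization (over all arrays, or within a set), median centring, other variance models, fits of the compared groups alone, covariates for B cell and muscle means, thresholds of 0.01 and 0.10, and each array left out. Promoter windows came from RefSeq (GRCm38.p6), whose build is not tied to the arrays.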

Additional observations from a re-analysis of the deposited data

How the results depend on the processing

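No paired analysis was possible because the labels give the mice no shared numbers. In the alternatives listed above, 0 member probe sets passed in the 3 comparisons. Counts over all probe sets moved more. Between Stat5a-/- and Stat5ab+/null 3 probe sets were called, and 1 with 1 probe set per gene, 346 with array weights, 0 without moderation, 5 in a fit of these groups alone, 0 with the B cell covariate, 0 at an adjusted p under 0.01 and 0 to 5 without each array. Between single-Stat5b and single-Stat5a 1217 were called, and 534 with the 50th percentile filter, 310 with 1 probe set per gene, 545 in a fit of these groups alone, 683 at 0.01 and 939 to 2740 without each array, the highest without single-Stat5b 3. The interaction called 428, and 202, 110, 877 (array weights), 273 (no moderation), 238 (0.01) and 288 to 659 without each array, the highest without single-Stat5b 2. Filters and 1 probe set per gene test fewer probe sets and 0.01 is stricter by construction. For the other alternatives the cause was not tested.

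Differences of members, none of which passed, changed sign in 32 combinations of gene, comparison and alternative, 8 of them without Stat5ab+/null 2. With the B cell covariate, those between Stat5a-/- and Stat5ab+/null became 0.20 for Cd247, 0.0205 for Cd3d, 0.15 for Cd3e, 0.11 for Cd4, 0.0055 for Cd8a and 0.18 for Il7r. Without each array they ran from -0.35 to 0.37 for Cd247, -1.53 to 0.33 for Cd3d, -0.39 to 0.40 for Cd3e, -1.96 to 0.21 for Cd3g, -0.53 to 0.23 for Cd4, -0.76 to 0.21 for Cd8a, -1.29 to 0.22 for Cd8b1 and -1.02 to 0.46 for Il7r, each highest without Stat5ab+/null 2. Between single-Stat5b and single-Stat5a, Cd3d became 0.70 and Cd8a 0.34 with array weights, Cd3d 0.57 with the muscle covariate and Cd8b1 -8e-04 with quantile normalization. Without each array they ran from -0.77 to 0.30 for Cd3d, -0.0628 to 0.71 for Cd3e, -0.49 to 0.82 for Cd3g, -0.40 to 0.63 for Cd4, -0.067 to 0.14 for Cd8b1 and -0.37 to 0.46 for Zap70. All but Cd8b1 were lowest without single-Stat5b 1. Il7r kept its direction there in every alternative, with an adjusted p of 0.0689 with the B cell covariate. The Ets1 probe set passed at an adjusted p under 0.05 in 22 of the 22 alternatives that kept it (1.78 to 2.41).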
